A study of Mus musculus with 6 samples.

Results

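Carbonic anhydrases are zinc enzymes that convert carbon dioxide and water to bicarbonate and a proton, and back. Cytosolic forms act inside the cell, while membrane forms carry their catalytic domain on the outer face and set the pH around the cell together with bicarbonate and proton transporters. A few relatives, called carbonic anhydrase-related proteins, have lost the activity and act as binding partners. In brain, Car2 is a known product of oligodendrocytes and choroid plexus, and in human gliomas the membrane enzymes CA9 and CA12 are known from hypoxic and invasive tissue.

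The genes described here are the listed mouse carbonic anhydrases Car2, Car3, Car4, Car8, Car9, Car10, Car11, Car12, Car13 and Car14, as far as their symbols are rows of the deposited log2 RPKM table. RPKM is a read count scaled by gene length and by library size. Of the 10 listed genes, 7 were rows of the table, which holds 13069 genes in all. Car4, Car10 and Car14 were not rows and have no values here. The genes were chosen by their measured ATRX KO against ATRX WT differences in this same table, so those differences are given as a description, without a test.

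RNA-seq libraries came from neurosphere cultures of mouse glioblastoma (GBM), a malignant brain tumour, 3 labelled ATRX knockout (ATRX KO, line code C54B) and 3 labelled ATRX wild type (ATRX WT, line code C39E). Both groups come from tumours started in the ventricles of newborn C57BL/6 or FVB mice with Sleeping Beauty plasmids for a hairpin against p53 and for NRAS. The protocol describes ATRX loss by a hairpin plasmid, shATRX, and the genotype label calls it a knockout. Each genotype is 1 line, so ATRX status and the line's origin cannot be told apart, and the p-values below measure the spread between libraries of a line, which may be technical. FGF and EGF were added to the culture medium of both lines, which held B-27 and N-2 supplements. Library totals were 22177228 to 32477269 reads in ATRX KO and 34966108 to 38039847 reads in ATRX WT. Atrx, the chromatin remodeller targeted in the study, had 14.1, 16.6 and 17.1 RPKM in ATRX KO replicates 1 to 3, against 22.3, 22.7 and 21.5 RPKM in ATRX WT replicates 1 to 3 (log2 difference -0.48, SE 0.068, limma adjusted p = 0.000135). Of 12201 tested genes, 89.5% passed the test, 43.6% higher and 45.9% lower in ATRX KO.

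The levels of the carbonic anhydrases ran in opposite directions between the lines. The cytosolic enzymes Car3 and Car2 were abundant in ATRX WT and nearly absent or low in ATRX KO, whereas the membrane enzymes Car12 and Car9 and the cytosolic Car13 were higher in ATRX KO. The related proteins Car11 and Car8 were lower in ATRX KO. In all 7 genes the 3 ATRX KO values lay wholly outside the 3 ATRX WT values, as they did for 90.5% of all rows. Of the 7 rows, 6 reached the level needed for the test across all genes, and 3 were past its threshold above ATRX WT and 3 below, beside 43.6% and 45.9% of all tested genes. Nothing is read from these counts, since the same contrast was known when the genes were listed. The median log2 difference of the 6 tested rows was -0.15, beside -0.02 over all tested genes. With the untested Car8 included, the median of the 7 rows was -2.02, the value of Car11. In these bulk libraries, fewer cells that make a transcript and less transcript per cell cannot be told apart.

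**Figure D1:**
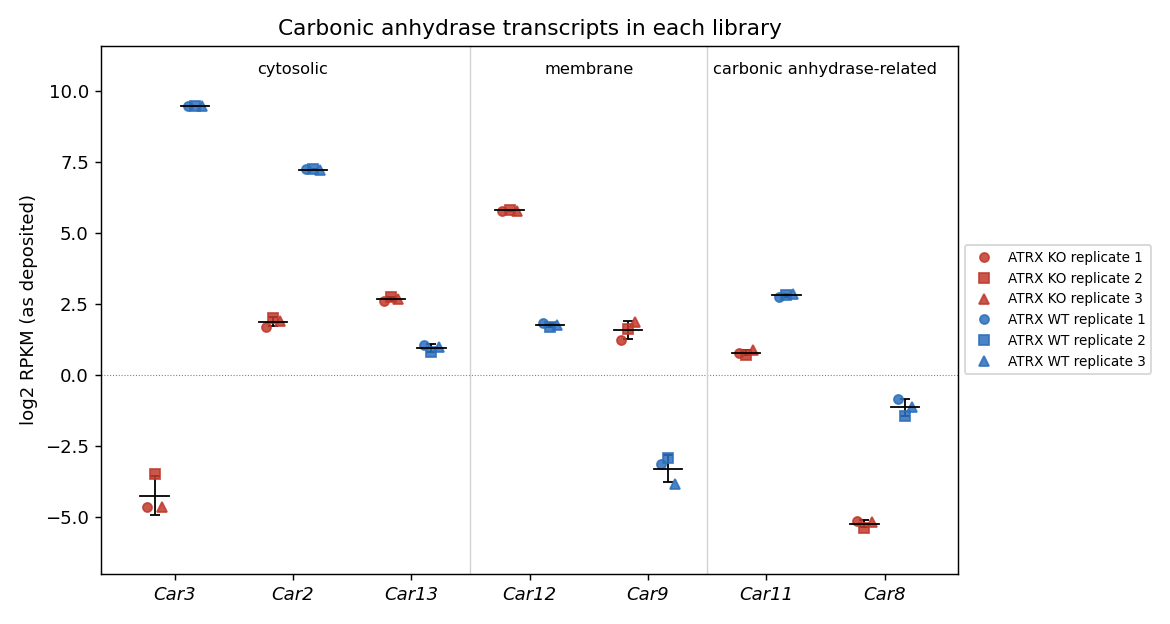
Deposited log2 RPKM (vertical axis) of the 7 carbonic anhydrases in each library, with ATRX KO (red) left of ATRX WT (blue), replicates by symbol, and the mean and SD of 3 libraries in black. Car3, Car2, Car11 and Car8 lie lower in ATRX KO, and Car13, Car12 and Car9 lie higher, with no overlap between the groups in any gene.

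Car3, a cytosolic enzyme of low catalytic activity known from adipocytes, slow muscle and liver, showed the widest gap of the 7 genes. Car3 had 0, 2 and 0 reads in ATRX KO replicates 1 to 3, against 41315, 44746 and 43449 reads in ATRX WT replicates 1 to 3. Every ATRX WT library was high and the ATRX KO libraries were at or next to 0. In ATRX WT, Car3 averaged 719 ± 2.12 RPKM (SD, n = 3), the 35th highest mean level among all rows of the table. With only 2 reads in ATRX KO the fold cannot be fixed closely: per unit of library size, ATRX WT over ATRX KO was 42436, with a 95% exact binomial interval of 11747 to 350408 that covers counting error only. The log2 difference of -13.74 rests on the prior count inside the deposited values.

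Car2, the fast cytosolic isozyme, had 174, 187 and 139 reads in ATRX KO, against 10308, 11097 and 10519 reads in ATRX WT. The ATRX KO libraries were uniformly low, yet each held more than 100 reads, so Car2 was present in both lines. Car2 averaged 3.65 ± 0.397 RPKM in ATRX KO and 151 ± 2.83 RPKM in ATRX WT (SD, n = 3 each). The ATRX KO mean was thus 2.41% of the ATRX WT mean (log2 difference -5.37, SE 0.070). It stood 361st by mean RPKM in ATRX WT and 9242nd in ATRX KO.

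Car13, a cytosolic enzyme of broad tissue range, went the other way. Car13 had 423, 400 and 304 reads in ATRX KO, against 177, 161 and 178 reads in ATRX WT. Scaled for depth this was 6.37 ± 0.282 RPKM in ATRX KO and 1.91 ± 0.168 RPKM in ATRX WT (SD, n = 3 each), 3.33-fold higher in ATRX KO (log2 difference 1.73, SE 0.078). Together, Car2, Car3 and Car13 summed to 10 ± 0.7 RPKM in ATRX KO and 873 ± 4.88 RPKM in ATRX WT.

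Car13, Car3 and Car2 are neighbours on chromosome 3 and yet did not move together. In GENCODE M21 (GRCm38), Car13 (ENSMUSG00000027555.8) spans chr3:14641727-14663002, Car3 (ENSMUSG00000027559.5) chr3:14863512-14872523 and Car2 (ENSMUSG00000027562.12) chr3:14886273-14900770, all on the plus strand. Car1, the red cell isozyme, lies between Car13 and Car3 and was not a row of the table. Only 13.7 kb separate Car3 from Car2, and both were low in ATRX KO. Within 500 kb of these genes, the other rows were Lrrcc1, E2f5 and 1810022K09Rik, all on the Car13 side. Lrrcc1, a centrosome protein, fell in ATRX KO (log2 fold change -1.13, SE 0.112, limma adjusted p = 1.15e-05). E2f5, a transcription factor of the E2F family, fell by 0.30 (SE 0.032, limma adjusted p = 1.78e-05). 1810022K09Rik rose by 0.30 (SE 0.034, limma adjusted p = 2.74e-05), though its annotated span overlaps the end of E2f5 and whether the authors counted by strand is not given in the sources used here. Among 9 other genes at 10 to 20 Mb of chromosome 3 whose log2 RPKM averaged 3 or more, the median log2 difference was 0.17.

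**Figure D2:**
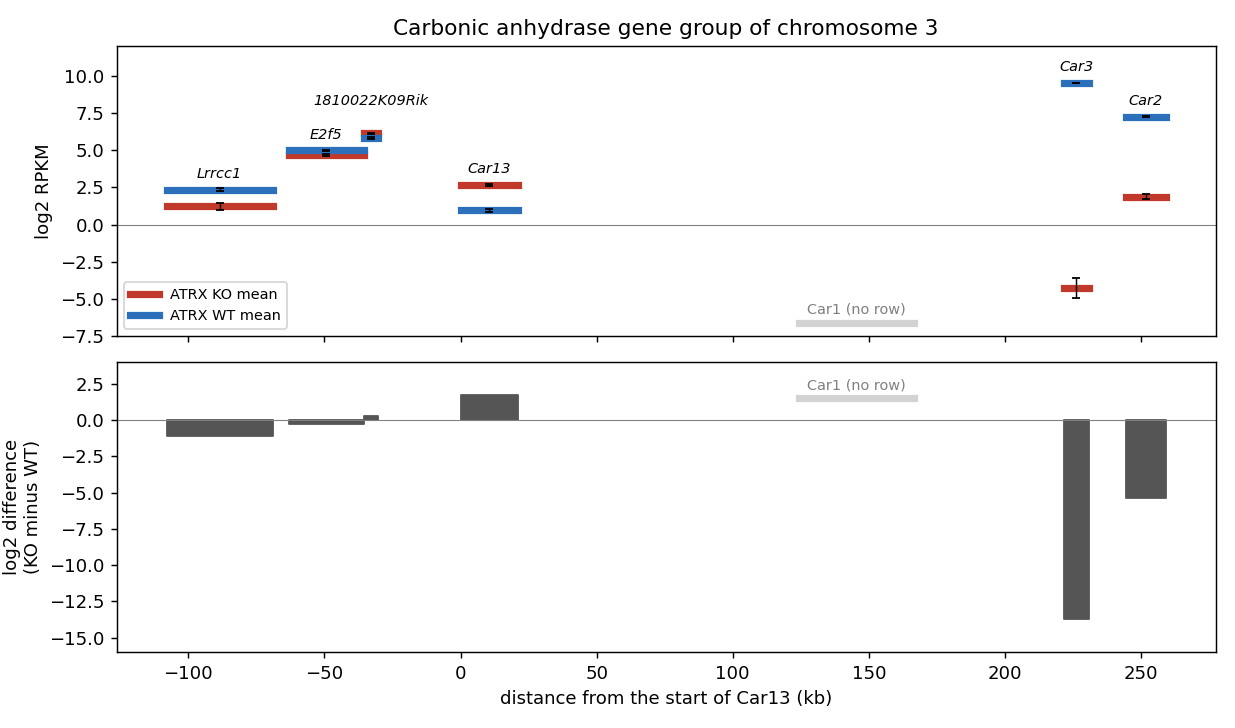
Mean log2 RPKM with SD of 3 libraries (upper panel, ATRX KO red, ATRX WT blue) and log2 difference, ATRX KO minus ATRX WT (lower panel), of the genes around the chromosome 3 carbonic anhydrases, by distance from the start of Car13 in kb. Car13 is higher by 1.73 in ATRX KO, Car3 and Car2 are lower by log2 differences of -13.74 and -5.37, and Car1 has no row.

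The membrane enzymes Car12 and Car9 made up most of the summed level of the 7 genes in ATRX KO. Car12 (ENSMUSG00000032373.15, chr9:66713686-66766845), a transmembrane enzyme with an outer catalytic domain, had 6221, 5527 and 4289 reads in ATRX KO, against 500, 489 and 494 reads in ATRX WT. Those reads gave 55.3, 56.8 and 55.6 RPKM in ATRX KO, against 3.59, 3.24 and 3.35 RPKM in ATRX WT. The ATRX KO libraries were high and close to each other. Car12 was 16.5-fold higher in ATRX KO (log2 difference 4.04, SE 0.044), at means of 55.9 ± 0.78 RPKM in ATRX KO and 3.39 ± 0.177 RPKM in ATRX WT (SD, n = 3 each).

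Car9 (ENSMUSG00000028463.14, chr4:43506966-43513729), the hypoxia-inducible membrane enzyme, had 139, 155 and 149 reads in ATRX KO, against 6, 8 and 3 reads in ATRX WT. All ATRX WT libraries were near the lower limit of detection, while ATRX KO held a low but clear level of 2.35, 3.02 and 3.67 RPKM. Per unit of library size, Car9 was 39.8-fold higher in ATRX KO, with a 95% exact binomial interval of 24.6 to 68.9 for counting error. The log2 difference was 4.88 with an SE of 0.253. Summed, Car9 and Car12 stood at 58.9 ± 1.12 RPKM in ATRX KO and 3.47 ± 0.176 RPKM in ATRX WT (SD, n = 3 each).

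Car12 and Car9, the membrane enzymes among the 7 genes, were higher in ATRX KO. As Car9 is also a textbook target of hypoxia-inducible factor (HIF), the promoters of both are shown. These are the 250 bases before the RefSeq start (GRCm38.p6, plus strand), Car9 at chr4:43506776-43507025 and Car12 at chr9:66713436-66713685. Capitals mark the HIF-binding core, searched as ACGTG and GCGTG on both strands.
Car9: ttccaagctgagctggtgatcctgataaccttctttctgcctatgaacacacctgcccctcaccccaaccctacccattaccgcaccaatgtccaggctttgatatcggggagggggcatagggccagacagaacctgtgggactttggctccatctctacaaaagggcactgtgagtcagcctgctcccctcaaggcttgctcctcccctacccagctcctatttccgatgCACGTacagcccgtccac
Car12: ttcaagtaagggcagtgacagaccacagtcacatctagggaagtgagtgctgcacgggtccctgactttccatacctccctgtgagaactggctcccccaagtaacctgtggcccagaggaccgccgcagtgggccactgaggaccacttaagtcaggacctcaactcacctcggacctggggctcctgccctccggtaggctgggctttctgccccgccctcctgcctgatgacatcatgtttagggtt
Car9 held 1 core, ACGTG on the minus strand and so printed as its complement, with its first printed base 18 bases before the RefSeq start. The GENCODE start of Car9 lies 60 bases further upstream, so in that annotation the core falls inside the gene. Car12 held neither core in this window. ACGTG was found in 16.6% and either core in 38.6% of all 32851 promoter windows of the same length. Car11 had entries for 2 starts, of which 1 held GCGTG, and the table used had no entry for Car2, Car3, Car8 or Car13. A match describes letters in a window and is not a measured binding site.

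The carbonic anhydrase-related proteins were both lower in ATRX KO, from low levels. Car11 (ENSMUSG00000003273.14, chr7:45699843-45704682), a secreted relative without enzyme activity, had 73, 60 and 54 reads in ATRX KO, against 364, 414 and 409 reads in ATRX WT. Car11 averaged 1.69 ± 0.109 RPKM in ATRX KO and 6.99 ± 0.226 RPKM in ATRX WT (SD, n = 3 each; log2 difference -2.02, SE 0.067). Car8 (ENSMUSG00000041261.9, chr4:8143362-8239041), a relative that binds the inositol trisphosphate receptor Itpr1 and is best known from Purkinje cells, had 3, 2 and 2 reads in ATRX KO, against 117, 82 and 102 reads in ATRX WT. Car8 stayed under 1 RPKM in every library and did not reach the level needed for the test. Per unit of library size, ATRX WT over ATRX KO was 28.2 for Car8, with a 95% exact binomial interval of 13.5 to 70.7.

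Set in order, the levels of the 7 genes were different in each line. In ATRX KO, Car12 came first, followed by Car13, Car2, Car9 and Car11, with Car3 and Car8 at 0 to 3 reads per library, where their order is not resolved. The libraries of Car2 and Car9 overlapped in ATRX KO, and no other neighbours in the order down to Car11 did. In ATRX WT the order was Car3, Car2, Car11, Car12, Car13, Car8 and Car9, with no overlap between neighbours. The summed level of the 7 genes was 68.7, 72.1 and 71.3 RPKM in ATRX KO, against 887, 886 and 878 RPKM in ATRX WT. ATRX KO thus held 0.08 of the ATRX WT sum. Without Car3 the sums were 70.7 ± 1.78 RPKM in ATRX KO and 164 ± 2.76 RPKM in ATRX WT. Without Car3 and Car2 the direction turned, at 67 ± 1.38 RPKM in ATRX KO and 12.8 ± 0.28 RPKM in ATRX WT (SD, n = 3 each).

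Shares of the sum differed between the lines in the same way. Of the summed RPKM of the 7 genes, Car12 made up 79.1 ± 1.29% in ATRX KO and 0.384 ± 0.0194% in ATRX WT. Car3 made up 0.0231 ± 0.04% in ATRX KO and 81.4 ± 0.213% in ATRX WT. For Car2 the share was 5.16 ± 0.435% in ATRX KO and 17.1 ± 0.228% in ATRX WT. By class, membrane enzymes held 83.4 ± 0.538% in ATRX KO and 0.392 ± 0.019% in ATRX WT, and cytosolic enzymes held 14.2 ± 0.64% in ATRX KO and 98.8 ± 0.0187% in ATRX WT (SD, n = 3 each). Shares within a library do not depend on the scaling of library size.

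**Figure D3:**
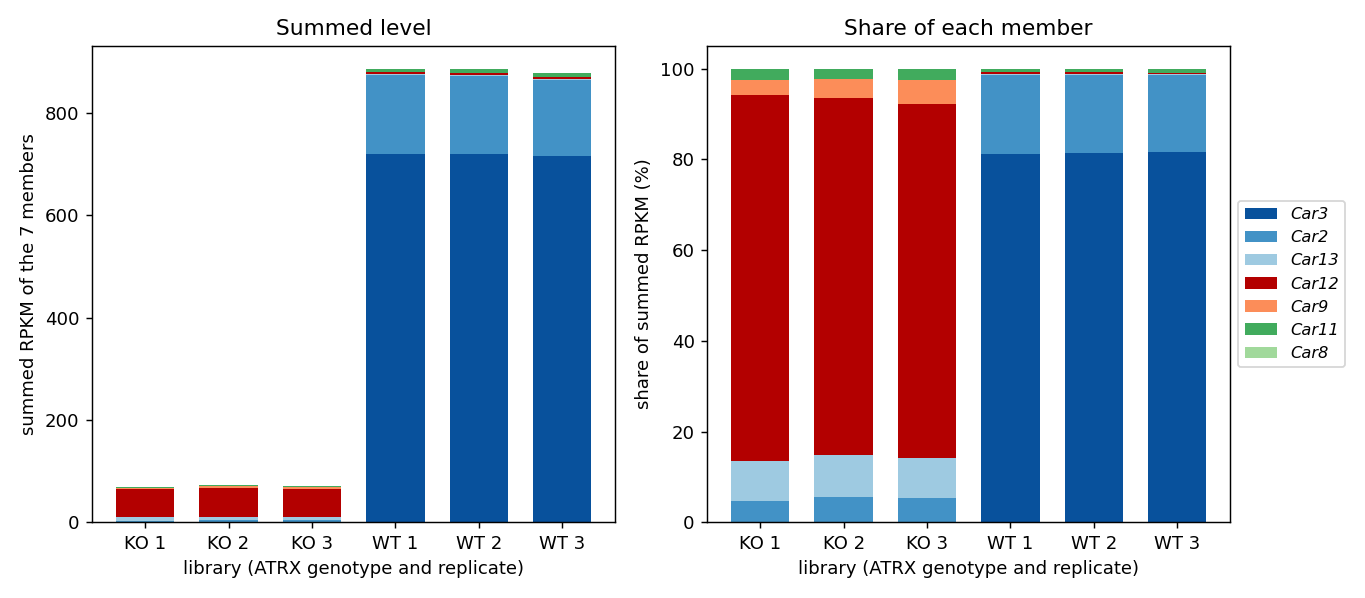
Summed RPKM of the 7 carbonic anhydrases (left, stacked bars from 0) and the share of each in that sum in percent (right), per library, ATRX KO left of ATRX WT. ATRX KO libraries sum to 68.7 to 72.1 RPKM, mostly Car12, and ATRX WT libraries to 878 to 887 RPKM, mostly Car3 and Car2.

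Of the 6 further family members, Car5b, Car6 and Car15 were rows of the table, and Car1, Car5a and Car7 were not. Car6, the secreted isozyme known from saliva, had 26.9, 26.3 and 26.2 RPKM in ATRX KO, against 4.73, 4.96 and 4.90 RPKM in ATRX WT. It rose in ATRX KO (log2 fold change 2.43, SE 0.038, limma adjusted p = 6.62e-11) and stood next to Car12 in level there. Car15, a membrane-anchored enzyme in mouse, fell by 1.68 (SE 0.139, limma adjusted p = 3.09e-06), with 21, 13 and 13 reads in ATRX KO, against 69, 83 and 92 reads in ATRX WT. Its direction, opposite to that of Car12 and Car9, was fixed by the filter, since Car15 entered the test through ATRX WT alone. The mitochondrial Car5b was under the level for the test, at 0.579 ± 0.0832 RPKM in ATRX KO and 0.761 ± 0.0796 RPKM in ATRX WT (SD, n = 3 each). The sums and shares above leave out Car5b, Car6 and Car15. With these in the sum, Car12 made up 56.4 to 57.2% and Car6 26.4 to 27.8% in ATRX KO libraries. In ATRX WT libraries Car3 made up 80.6 to 80.9% and Car6 0.529 to 0.556%.

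Both receptor phosphatases that carry a carbonic anhydrase-like domain, Ptprz1 and Ptprg, fell in ATRX KO. Ptprz1, a receptor of oligodendrocyte precursors and other neural progenitors, had 3 reads over the ATRX KO libraries, against 70974 over the ATRX WT libraries. Per unit of library size, ATRX WT over ATRX KO was 15504 for Ptprz1, with a 95% exact binomial interval of 5305 to 75181 (limma adjusted p = 5.88e-10). Ptprz1 entered the test through ATRX WT alone, so its direction was fixed by the filter. Ptprg differed little, at 17.5 ± 0.372 RPKM in ATRX KO and 20.0 ± 0.218 RPKM in ATRX WT (SD, n = 3 each; log2 fold change -0.20, limma adjusted p = 0.000322).

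HIF and oxygen sensor genes were examined next, since Car9 belongs to the HIF targets. Hif1a, the oxygen-regulated subunit HIF-1α, had 136, 143 and 143 RPKM in ATRX KO, against 61.6, 60.6 and 59.1 RPKM in ATRX WT (log2 fold change 1.22, SE 0.031, limma adjusted p = 1.04e-09). Epas1, which encodes HIF-2α, fell by 1.39 (SE 0.057, limma adjusted p = 2.33e-08), and the prolyl hydroxylase Egln1, which marks HIF for destruction, fell by 1.16 (SE 0.033, limma adjusted p = 2.05e-09). Of 9 tested genes of this list, 3 rose, 5 fell and 1 had no call. Among all tested genes, 43.6% were higher and 45.9% lower. The list's median log2 difference was -0.08, beside -0.02 for all tested genes. Without ATRX WT replicate 2 the falls numbered 3. Arnt, the constant partner of HIF-1α, rose by 0.54 and its brain relative Arnt2 fell by 0.71. The inhibitor Hif1an rose by 0.22 (limma adjusted p = 0.00206), a call lost with library size taken as reads in the table (adjusted p = 0.697, in a range of 0.000137 to 0.697 over the alternatives).

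Of 25 tested genes in the list of HIF targets, 19 rose and 6 fell in ATRX KO, beside 43.6% and 45.9% of all tested genes. This list was made with earlier results of these data known and does not hold every HIF target. The median log2 difference was 0.83, against -0.02 over all tested genes. The summed level of the list was 2786 to 2865 RPKM in ATRX KO and 1596 to 1674 RPKM in ATRX WT. The largest rises were Ero1l, an oxidase of the endoplasmic reticulum (log2 fold change 2.94, SE 0.081, limma adjusted p = 1.84e-09), P4ha2, a collagen prolyl hydroxylase (2.79, SE 0.050), and Pdk1, the kinase that keeps pyruvate out of mitochondria (2.37, SE 0.062). The largest falls were Adm, the peptide adrenomedullin (-4.11, SE 0.088), Pfkfb3, a regulator of glycolysis (-2.98, SE 0.048), and the brain aldolase Aldoc (-1.50, SE 0.073). The smallest rise was that of the glycolytic enzyme Pgk1, at 0.14, less than the shift of -0.20 in the median of all tested genes when library size was taken as reads in the table. The rises numbered 17 to 19 over all alternatives run. The labels name no low-oxygen culture.

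**Figure D4:**
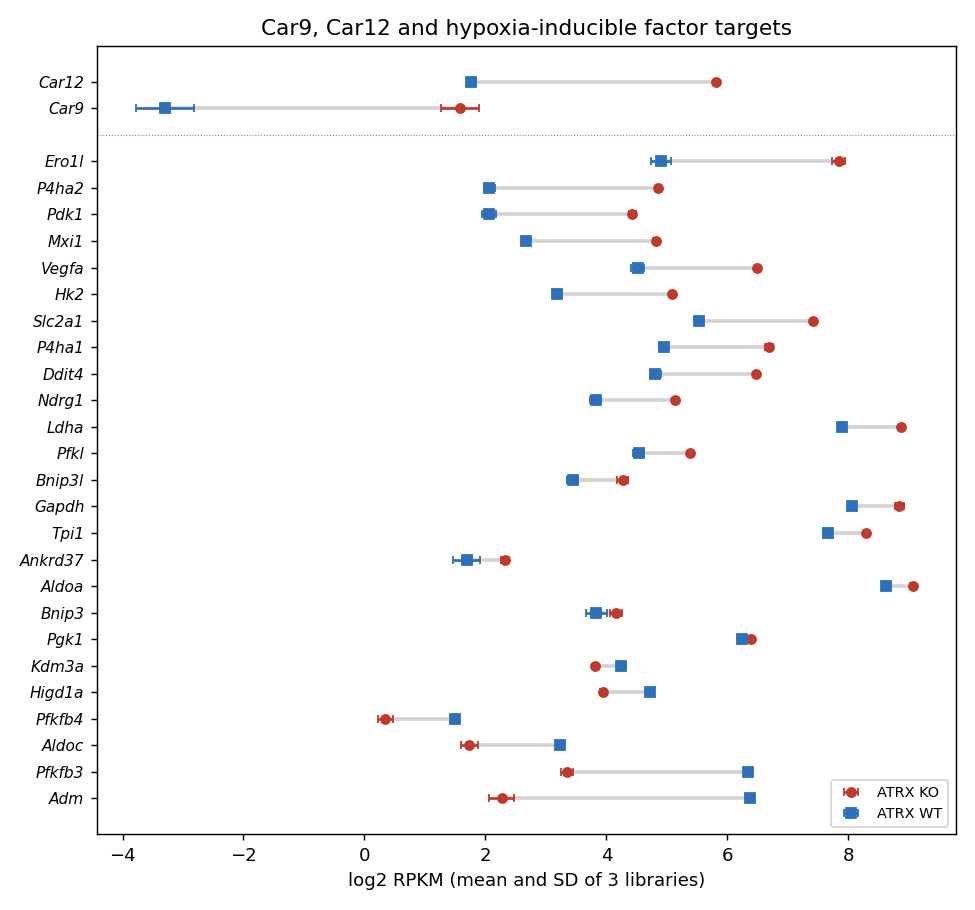
Mean log2 RPKM with SD of 3 libraries in ATRX KO (red circles) and ATRX WT (blue squares) for Car12 and Car9 (top) and for the 25 HIF targets, ordered by their log2 difference. Targets from Ero1l to Pgk1 are higher in ATRX KO under the authors' scaling, by as little as 0.14 for Pgk1, and those from Kdm3a to Adm are lower.

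Genes of the Slc4 and Slc26 transporter families, many of which carry bicarbonate, the product of the enzymes, across the membrane, went both ways. Of 8 tested, 3 rose, 4 fell and 1 had no call, beside 43.6% higher and 45.9% lower among all tested genes. The median log2 difference was -0.31. Of the 8, 6 averaged a log2 RPKM of 0 or more in ATRX KO and 7 did in ATRX WT. Slc4a4, Slc26a6 and Slc4a11 entered the test through 1 line alone, so their direction was fixed by its filter. Slc26a11, an anion exchanger of the Slc26 family, rose by 2.54 (SE 0.073, limma adjusted p = 2.3e-09), Slc4a11 by 2.35 (SE 0.143) and the chloride-bicarbonate exchanger Slc4a2 by 1.07 (SE 0.051). Slc4a4, the sodium-bicarbonate cotransporter of astrocytes, had 2 reads over the ATRX KO libraries, against 2563 over the ATRX WT libraries. Per unit of library size, ATRX WT over ATRX KO was 840 for Slc4a4, with a 95% exact binomial interval of 232 to 6938. Slc26a6 and Slc4a3, both anion exchangers, fell by 1.68 and 1.32. Slc26a7, too low for the test, had 0 reads over the ATRX KO libraries, against 235 over the ATRX WT libraries, at least 51.3-fold lower against a floor of 3 reads over the group, where the two-sided 95% exact binomial interval of the other ratios has its lower limit at 41.4.

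Sodium-proton exchangers, which push protons out of the cell or into organelles, also split. Of 11 tested, 4 rose, 4 fell and 3 had no call, and 7 fell with library size taken as reads in the table. Among all tested genes, 43.6% were higher and 45.9% lower. Slc9a2 entered the test through ATRX KO alone and Slc9a7 through ATRX WT alone, so their direction was fixed by its filter. Slc9a2, a plasma membrane exchanger, had 29.6, 24.4 and 28.3 RPKM in ATRX KO, against 0.366, 0.303 and 0.339 RPKM in ATRX WT (log2 fold change 6.28, SE 0.096, limma adjusted p = 6.54e-11). Slc9a8, an exchanger of the Golgi, rose by 0.54 (SE 0.062, limma adjusted p = 3.31e-05). Slc9a7, an exchanger of the trans-Golgi network, had 2 reads over the ATRX KO libraries, against 2083 over the ATRX WT libraries. Per unit of library size, ATRX WT over ATRX KO was 683 for Slc9a7, with a 95% exact binomial interval of 189 to 5640. Tesc, a calcium-binding regulator of sodium-proton exchange, fell by 3.57 (SE 0.153, limma adjusted p = 3.14e-08).

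Lactate-proton cotransporters gave 3 rises and 1 fall of 4 tested, beside 43.6% higher and 45.9% lower among all tested genes. The chaperone Emb rose by 2.13 (SE 0.040, limma adjusted p = 2.06e-10), and the widespread transporter Slc16a1 by 0.86 (SE 0.030, limma adjusted p = 8.19e-09). Slc16a3, the transporter of glycolytic cells, fell by 1.26 (SE 0.120, limma adjusted p = 8.51e-06). The chaperone Bsg was higher by 0.24 with adjusted p = 0.000115 in limma, by 0.05 with library size taken as reads in the table (adjusted p = 0.203, in a range of 2.32e-06 to 0.203 over the alternatives), and was lower, at -0.07, after quantile normalization. Among water and carbon dioxide channels 3 rose and 1 fell of 4 tested, beside 43.6% higher and 45.9% lower among all tested genes. Of these, 3 averaged a log2 RPKM of 0 or more in ATRX KO and 1, Aqp11, did in ATRX WT. Each entered the test through 1 line alone, so the direction of all 4 was fixed by its filter. Aqp1, a water channel that also passes carbon dioxide, had 4775 reads over the ATRX KO libraries and 71 over the ATRX WT libraries (log2 fold change 6.55, SE 0.075, limma adjusted p = 1.55e-11). Aqp8 and Aqp9 rose by 4.81 and 4.47, and Aqp11 fell by 2.17. Of the acid sensors only the channel Asic1 was tested, and it fell by 2.47 (SE 0.097, limma adjusted p = 1.73e-08). Its relative Asic2 had 0 reads over the ATRX KO libraries, against 146 over the ATRX WT libraries, at least 31.9-fold lower against 3 reads over the group, with a lower limit of 25.6 in the two-sided exact interval.

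**Figure D5:**
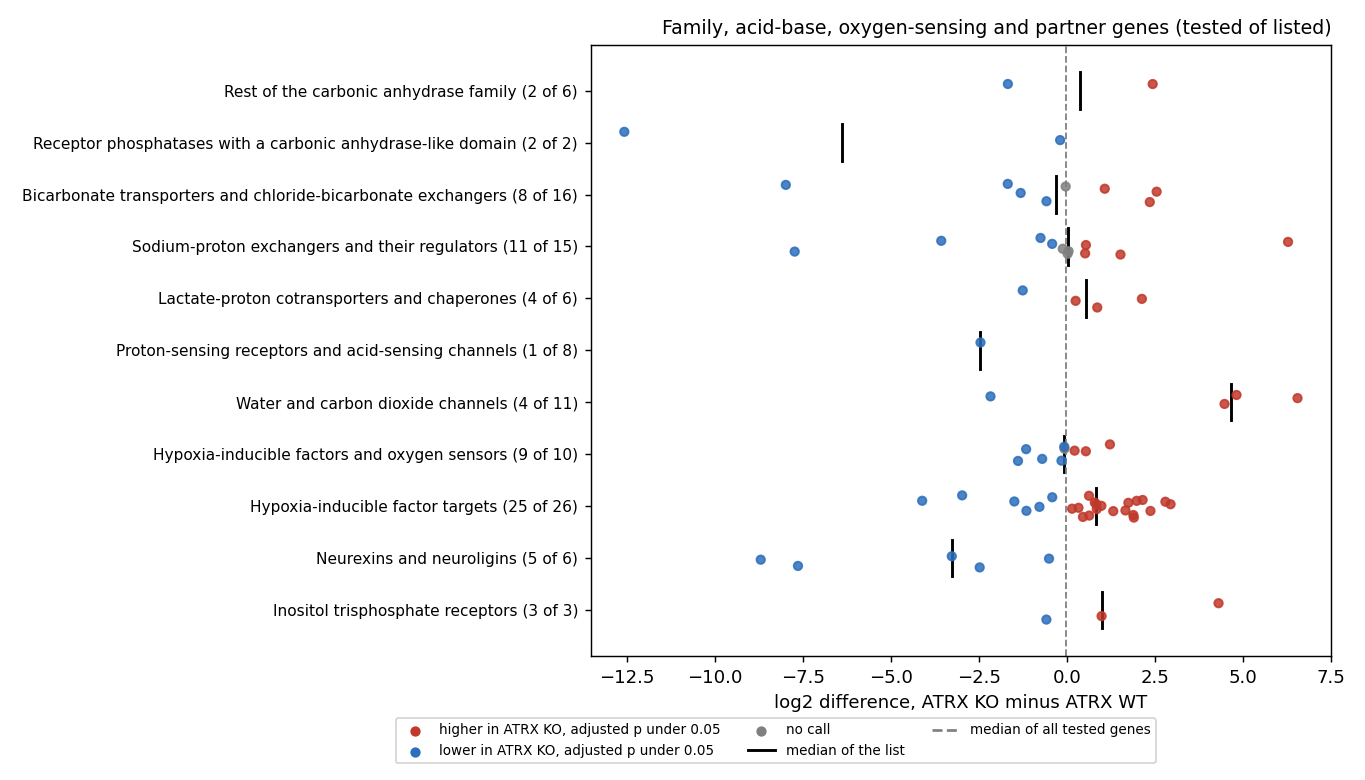
Log2 difference, ATRX KO minus ATRX WT (horizontal axis), of the tested genes in each related list, with tested and listed numbers in brackets, red and blue points past the threshold above and below ATRX WT, and the list's median as a black bar. The HIF targets have a median of 0.83 and the neurexins and neuroligins of -3.27, beside -0.02 for all tested genes (dashed line). Genes that entered the test through 1 line alone, such as Nlgn1 and Nlgn3, had their direction fixed by the filter.

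Known partners of the related proteins were read in the same way. Neurexins, synaptic receptors that bind Car10 and are joined by neuroligins, gave 5 falls of 5 tested genes of the joint list, beside 45.9% lower among all tested genes, with a median log2 difference of -3.27. Nlgn3, a neuroligin, fell by 7.64 (SE 0.127, limma adjusted p = 9.95e-11), and Nlgn1 had 1 read over the ATRX KO libraries, against 3645 over the ATRX WT libraries, a ratio of ATRX WT over ATRX KO of 2389 per unit of library size (95% exact binomial interval 428 to 94372). Of the 5, 3 averaged a log2 RPKM of 0 or more in ATRX KO, and all did in ATRX WT. Nlgn1 and Nlgn3 entered the test through ATRX WT alone, so their direction was fixed by its filter. Itpr1, the receptor that Car8 binds, fell by 0.59 (SE 0.043, limma adjusted p = 1.27e-06), while its relatives Itpr3 and Itpr2 rose by 4.30 (SE 0.063) and 0.98 (SE 0.064).

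Likeness to other genes was measured as the Euclidean distance over the 6 log2 RPKM values, for the 3 carbonic anhydrases with a group mean of at least 3. The genes nearest to Car2 were Mmp15, a membrane-bound matrix protease, at a distance of 0.37, and Acsbg1, an acyl-CoA synthetase of brain, at 0.58. Nearest to Car12 were Serpinb6a, a protease inhibitor, at 0.44, and Mgst2, a glutathione transferase, at 0.61. The nearest genes to Car3 were farther off, Plekhb1 at 3.70 and the neuronal vesicle gene Nsg2 at 4.00. In the 10-Mb stretches around the other carbonic anhydrases, genes whose log2 RPKM averaged 3 or more had medians between -0.26 and 0.40. The median log2 difference was 0.40 for 55 genes at 40 to 50 Mb of chromosome 4 (Car9), 0.12 for 39 genes at 60 to 70 Mb of chromosome 9 (Car12), 0.33 for 56 genes at 40 to 50 Mb of chromosome 7 (Car11) and -0.26 for 10 genes at 0 to 10 Mb of chromosome 4 (Car8).

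Markers of cell type moved beside these genes. Where a marker reached the level for the test in 1 line alone, its direction was fixed by that filter, so the counts are read with the number of markers that averaged a log2 RPKM of 0 or more in each line, and beside 43.6% higher and 45.9% lower among all tested genes. Oligodendrocyte lineage markers, among which Car2 would be counted in brain, gave 7 falls and 2 rises of 9 tested genes and summed to 43.4 to 46.9 RPKM in ATRX KO and 305 to 314 RPKM in ATRX WT. Of the 9, 3 reached that level in ATRX KO and 9 did in ATRX WT. Olig1 and Bcas1 had 0 reads in ATRX KO. The rises were the precursor markers Pdgfra, at 31.5 ± 2.03 RPKM in ATRX KO and 3.40 ± 0.135 RPKM in ATRX WT, and Cspg4, also a pericyte marker, at 10.47 ± 0.207 RPKM in ATRX KO and 2.51 ± 0.00725 RPKM in ATRX WT (SD, n = 3 each). Sox10, Enpp6, Gpr17, Mog, Mag and Mobp were not rows of the table. Astrocyte markers gave 5 falls and 1 rise of 6, with Mlc1 at 0 reads in ATRX KO, and summed to 94.7 to 100.3 RPKM in ATRX KO and 401 to 408 RPKM in ATRX WT. Of these 6, 3 reached the level in ATRX KO and 6 in ATRX WT. The rise was that of Sox9, a transcription factor of astrocytes and neural progenitors, at 62.6 ± 5.26 RPKM in ATRX KO and 31.0 ± 0.966 RPKM in ATRX WT (SD, n = 3 each), so Sox9 made up most of the ATRX KO sum. Gfap, Aqp4, Gjb6 and S100b were not rows. Neuron markers gave 8 falls of 8, with Dcx at 0 reads in ATRX KO, and summed to 8.62 to 9.36 RPKM in ATRX KO and 189 to 195 RPKM in ATRX WT. Only 2 of these 8 reached the level in ATRX KO, against 8 in ATRX WT. Fibroblast and pericyte markers gave 8 rises and 1 fall of 9 and summed to 1229 to 1404 RPKM in ATRX KO and 22.7 to 22.9 RPKM in ATRX WT. Of these 9, 8 reached the level in ATRX KO and 2 in ATRX WT. The part of these shifts in cell type markers in the carbonic anhydrase values was not tested.

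Some tissues known for particular isozymes were checked too. Of 9 red cell markers, including the globins, 0 were rows of the table. Of 10 adipocyte markers 3 were rows and 2 were tested: Fabp4 was 13.4 ± 2.27 RPKM in ATRX KO and 0.397 ± 0.113 RPKM in ATRX WT, and Lpl was 0.138 ± 0.0116 RPKM in ATRX KO and 4.01 ± 0.137 RPKM in ATRX WT (SD, n = 3 each). Adipoq, Plin1, Lep and Cfd, which define adipocytes, were not rows. Of 10 skeletal muscle markers 3 were rows, summing to 3.37 to 3.89 RPKM in ATRX KO and 0.527 to 0.661 RPKM in ATRX WT, and Ckm, Acta1 and the fast myosins Myh1 and Myh4 were not. The 2 muscle markers tested both rose, and 2 reached the level in ATRX KO and 0 in ATRX WT, so their direction was fixed by the filter. The muscle list held no marker specific to slow muscle, and no liver list was made, so neither tissue was checked. In ATRX WT, where Car3 averaged 719 RPKM, the 3 adipocyte markers in the table summed to 4.90 to 5.40 RPKM, with Lpl alone at 4.01. The cell source of Car3 was not tested. Choroid plexus and ependyma markers gave 3 falls of 3 tested, summing to 0.710 to 0.784 RPKM in ATRX KO and 9.18 to 9.75 RPKM in ATRX WT, with Ttr at 0 reads in ATRX KO. Of the 3, 0 reached the level in ATRX KO and 3 in ATRX WT, so their direction was fixed by the filter. Endothelial markers gave 3 rises and 1 fall of 4 tested, and summed to 20.2 to 21.4 RPKM in ATRX KO and 4.14 to 4.53 RPKM in ATRX WT. Of these 4, 3 reached the level in ATRX KO and 2 in ATRX WT. Microglia and macrophage markers gave 3 rises of 3 tested, at sums of 33.8 to 39.6 RPKM in ATRX KO and 5.98 to 6.69 RPKM in ATRX WT, where 3 reached the level in ATRX KO and 1 in ATRX WT. Any of these tissue markers that reached the level in 1 line alone had its direction fixed by the filter. Their counts stand beside 43.6% higher and 45.9% lower among all tested genes. Ptprc, Aif1, Cx3cr1 and Csf1r were not rows.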

How the data were processed

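Per the labels' protocols, 3 ATRX KO and 3 ATRX WT libraries were prepared with the TruSeq Stranded kit and sequenced at 42 nt from both ends. The values deposited by the authors are log2 RPKM, 1 per gene and library. The submitters' processing notes name edgeR 3.20.9, HTSeq 0.11.2, STAR 2.5.3a, Trim Galore and FastQC, and the builds mm9 and mm10 with no role for either. The filter that left 13069 genes in the table is not given in the sources used here. The deposited log2 values lie on whole-read steps with a prior count that averages 2, so reads and gene lengths were recovered for 100% of genes within 0.0001 reads, and the log2 values rebuilt from them differed from the deposited ones by at most 5.7e-14. RPKM values were computed from these reads, the recovered lengths and the authors' scaled library sizes, without the prior count.

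The 12201 genes that reached log2 RPKM 0 in 3 or more of the 6 libraries entered a linear model in limma 3.58.1 (R 4.3.3; moderated test with a mean-variance trend, two-sided, Benjamini-Hochberg over all tested genes, threshold 0.05). Rose and fell are used for genes past it. The filter kept Car3 through ATRX WT and Car9 through ATRX KO alone, and left out Car8. For any gene kept through 1 line alone, the direction was fixed by the filter. Log2 differences and log2 fold changes subtract ATRX WT from ATRX KO, and counting intervals are exact binomial at 95% (SciPy 1.17.1). The carbonic anhydrases, 11 related lists and 10 marker lists were chosen with earlier results of these data known. Named genes are the carbonic anhydrases and their family, up to 3 per related list each way by size of change, the 2 nearest genes by distance, neighbours on chromosome 3, markers at 0 reads in a group, and Atrx. Pgk1, Fabp4, Lpl, Pdgfra, Cspg4, Sox9 and the markers named as not rows were chosen after the values were seen. Some genes that the rule names are not reported here. Positions are from GENCODE M21, with 1 position for 12598 symbols, and promoters from RefSeq GRCm38.p6. The fit and the recovery of reads were tested on simulated data. Alternatives were other filters, log2(RPKM + 1), other scalings, limma without the trend, voom weights on recovered reads, leaving out each library, and a replicate block.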

Additional observations from a re-analysis of the deposited data

How the results depend on the processing

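All 7 carbonic anhydrases kept their direction under every alternative computed for them, 7 for Car8 and 14 for each of the others. The log2 difference ranged from -14.997 to -9.41 for Car3, from -5.56 to -5.03 for Car2, from 1.33 to 2.07 for Car13, from 3.69 to 4.15 for Car12, from 1.86 to 6.09 for Car9, from -2.22 to -1.56 for Car11 and from -4.25 to -3.95 for Car8. For Car9 the low end came from log2(RPKM + 1), which compresses low levels, and the high end from quantile normalization. Genes past the threshold numbered 4388 to 5556 above and 5112 to 6689 below ATRX WT over the alternatives. The ratio of summed carbonic anhydrase RPKM, 0.0800, was 0.0698 with library size taken as reads in the table and 0.0674 after quantile normalization. Taking reads in the table as library size shifted the median of all tested genes by -0.20 on the log2 scale; with it, 7 sodium-proton exchanger genes fell, and after quantile normalization 2 lactate transporter genes fell and Bsg was at -0.066. Without a filter, falls numbered 2 in the rest of the family, 2 among lactate transporters, 3 among acid sensors and 2 among water channels. With a minimum of log2 RPKM 1, falls numbered 0 in the rest of the family, and water channels gave 1 rise and 0 falls. Leaving out 1 library at a time gave 3 to 5 falls among HIF and oxygen sensor genes. HIF targets gave 17 to 19 rises and 6 falls throughout. The causes were not tested. Replicate numbers share only a label: deviations of same-numbered libraries correlated at -0.05, 0.05 and -0.04. With replicate number as a block, 5287 genes were higher and 5564 lower. Depth limits Car3 and Car8 in ATRX KO and Car9 in ATRX WT, at 8 reads or fewer per library.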
